A study of Bos taurus with 6 samples.

Results

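The unfolded protein response and the integrated stress response are described here through 10 genes: ATF4, ATF5, DDIT3, ASNS, CHAC1, TRIB3, SESN2, PPP1R15A, HSPA5 and XBP1. They were chosen as ATF4 and CHOP (DDIT3) targets together with HSPA5 and XBP1, and were matched by symbol and Entrez gene number. All 10 were found among the 19163 genes of the count table, and all 10 had enough counts to be tested. In the cells grown on methanol-fixed feeders, the transcription factor ATF4 and its targets ASNS, CHAC1 and TRIB3 were lower, and SESN2 was higher. HSPA5, XBP1, DDIT3, PPP1R15A and ATF5 did not pass the test. ASNS and CHAC1 also passed under all 18 alternative settings, ATF4 under 14, TRIB3 under 15 of 17 and SESN2 under 10.

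The cells were F7, a line of bovine embryonic stem cells derived from in vitro fertilized Holstein Friesian embryos and kept with FGF and the WNT inhibitor IWR1. One group was cultured on mouse embryonic fibroblasts that mitomycin C had kept from dividing and left alive (MC-F7; its labels use 1M for MC). The other was cultured on mouse embryonic fibroblasts fixed with methanol, which are dead (MT-F7). Both groups were at 15 passages, had 3 RNA-seq libraries each, and came from this 1 line. By the study's methods the medium was changed every day for MC-F7 and every other day for MT-F7, so the feeder and the feeding interval cannot be told apart. It is not said whether separate cultures gave the 3 libraries of each group. The study's statistics section describes its data as averages of technical replicates, without naming the RNA-seq libraries. The p values thus cover only the spread between libraries, which may be technical.

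As background, both responses match protein synthesis and folding to what a cell can handle. Kinases that sense misfolded proteins in the endoplasmic reticulum (ER), missing amino acids, missing heme or double-stranded RNA phosphorylate the initiation factor eIF2α, which slows translation in general and favours translation of ATF4 and ATF5. ATF4 then switches on genes for amino acid synthesis, uptake and tRNA charging. In the ER arm, the sensors IRE1 and ATF6 raise chaperones such as HSPA5 and degradation factors, in part through XBP1. Counts per gene show neither the translation of ATF4 and ATF5 nor the splicing of XBP1.

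The libraries held 21958386 to 24933430 counts on genes, and the smallest amount taken as detected, 3 counts, was 0.12 to 0.137 counts per 1000000 (CPM) and covers counting error only. Levels are CPM scaled by edgeR's TMM factors, given as the mean ± SD of 3 libraries. Differences were tested with edgeR's quasi-likelihood test over 13001 genes with Benjamini-Hochberg adjustment, a gene was called at an adjusted p under 0.05, and a negative log2 fold change means a lower level in MT-F7. With 3 libraries a group, the smallest two-sided p of an exact permutation test is 0.1. Of 10 pluripotent cell markers 8 were matched in the table and all of these were detected, and POU5F1 was at 1196 ± 329.5 CPM in MC-F7 and 522 ± 35.6 CPM in MT-F7. The summed level of these 8 markers, most of it POU5F1, was 1063 to 1762 CPM in MC-F7 and 644 to 725 CPM in MT-F7. Of the 8, 6 were called lower (75%) and 0 higher, beside 11.3% and 11.9% of all tested genes. SALL4 (log2 fold change 0.33) and PRDM14 (0.15) went the other way and were not called. The summed level of 23 fibroblast markers was 2190 to 2926 CPM in MC-F7 and 3878 to 5325 CPM in MT-F7. Its largest parts were VIM (means of 1314 and 2326 CPM) and SPARC (554 and 977 CPM). Of the 22 tested markers 11 were called higher (50%) and 0 lower, beside 11.9% and 11.3% of all tested genes. Their log2 fold changes were positive in 18 and negative in 4. None of the 23 was at 0 in all libraries. The part of these markers in the results below was not tested. In bulk RNA, fewer cells of a type and less RNA per cell cannot be told apart, and reads from mouse feeder RNA that aligned to bovine genes would be in the counts. The RNA came from cells that had not attached in a short plating on gelatin, and how many feeder cells this step left was not measured here. Genes of the mitochondrial genome took 16.3%, 19.8% and 28.3% of the counts in MC-F7 replicates 1, 2 and 3, and 23.2%, 18.0% and 27.9% in those of MT-F7.

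Of the 10 genes, 4 were called lower and 1 higher in MT-F7. Over all 13001 tested genes 11.3% were called lower, 11.9% higher and 23.2% in either direction. The median log2 fold change was -0.09 over the 10 genes and -0.0026 over all tested genes. The groups did not overlap in 5 of the 10 genes (40% of all tested genes): MT-F7 was the lower group in 4 of them and the higher group in 1, as it was in 20.1% and 19.9% of all tested genes. With an absolute log2 fold change above 1.5, a cut-off the study used, and an unadjusted p under 0.05, TRIB3 alone of the 10 passed, beside 6.58% of all tested genes. Other shares of all tested genes serve as background below: DESeq2 called 13.4% higher and 12.7% lower, and an unadjusted p under 0.05 was reached by 18.2% with a higher and 17.6% with a lower level.

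**Figure D1:**
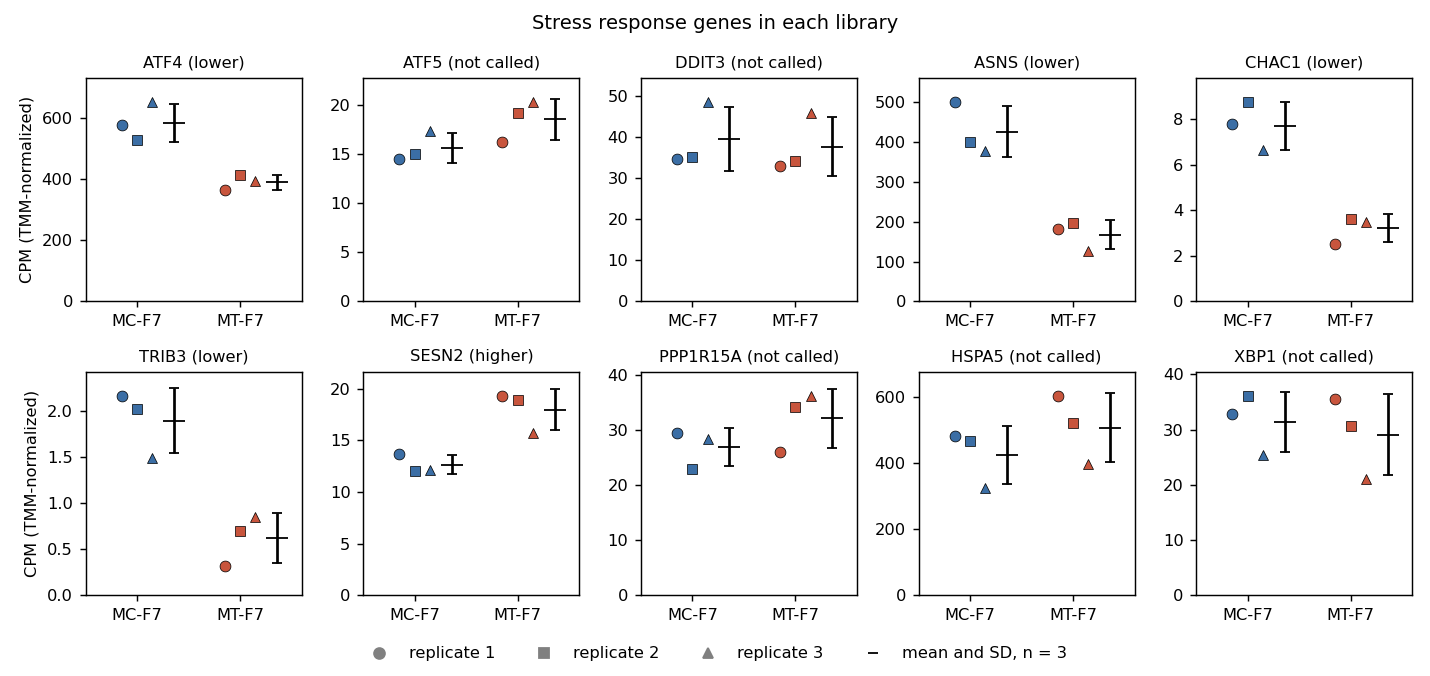
Level of each of the 10 genes in every library, in TMM-normalized CPM on linear axes that start at 0, with the call of the edgeR test in brackets. Symbols mark the replicate number, and the bar beside each group is its mean with the SD (n = 3). ATF4, ASNS, CHAC1 and TRIB3 had every MT-F7 library below every MC-F7 library, and in SESN2 the order was the opposite.

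ATF4 (Entrez gene 509107), the transcription factor at the centre of the integrated stress response, was at 574, 525 and 649.7 CPM in MC-F7 replicates 1, 2 and 3 and at 363, 412 and 391 CPM in MT-F7. All 3 MT-F7 libraries were lower than the lowest MC-F7 library. The mean fell from 583 ± 62.7 to 389 ± 24.7 CPM. The log2 fold change was -0.58 (standard error [SE] 0.154, adjusted p = 0.0153). The level was thus 1.5-fold lower. Without MT-F7 replicate 1 the log2 fold change was -0.55 and did not pass (adjusted p = 0.0812), and it did not pass in the deposited TPM values (-0.44 on log2(TPM + 1), adjusted p = 0.0606).

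ATF5 (515654), a related factor that is also translated under eIF2α phosphorylation, was at 14.5, 15.0 and 17.3 CPM in MC-F7 and at 16.3, 19.2 and 20.3 CPM in MT-F7. The groups overlapped in CPM, because MC-F7 replicate 3 was above MT-F7 replicate 1. In the deposited TPM values, in which library size remained, ATF5 was at 1.61 to 1.82 in MC-F7 and 2.0 to 2.44 in MT-F7, without overlap. Its log2 fold change was 0.25 with a 95% interval of -0.11 to 0.61 (adjusted p = 0.315). In RefSeq the ATF5 gene overlaps NUP62 and IL4I1, and the strand setting of the counting is not given in the sources used here.

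DDIT3 (777788) encodes CHOP, a factor that acts with ATF4 and is linked to cell death under lasting stress. Its level was 34.7, 35.2 and 48.4 CPM in MC-F7 and 32.9, 34.3 and 45.9 CPM in MT-F7. Replicate 3 was the highest library of both groups, and the groups overlapped almost throughout. The log2 fold change was -0.06 with a 95% interval of -0.47 to 0.34 (adjusted p = 0.84), and it turned positive when single libraries were left out. In RefSeq the DDIT3 gene overlaps MARS1, a called gene of the same pathway.

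ASNS (514209), asparagine synthetase, is a classical ATF4 target of the amino acid response. It was at 500.1, 401 and 379 CPM in MC-F7 and at 181, 196 and 126 CPM in MT-F7. The highest MT-F7 library was far under the lowest MC-F7 library. The mean fell from 427 ± 64.6 to 168 ± 36.8 CPM, 2.54-fold lower, and the log2 fold change was -1.35 (SE 0.192, adjusted p = 2.87e-04). ASNS was called under all 18 alternative settings that were fitted.

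CHAC1 (505991), an enzyme that degrades glutathione and is induced through ATF4, ATF3 and CHOP, was at 7.79, 8.75 and 6.64 CPM in MC-F7 and at 2.51, 3.63 and 3.48 CPM in MT-F7. The groups did not overlap. It was 2.41-fold lower in MT-F7, and the log2 fold change was -1.27 (SE 0.234, adjusted p = 0.00193). CHAC1 was also called under all 18 settings.

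TRIB3 (538465) is a pseudokinase that binds ATF4 and CHOP and dampens their activity. It was a low gene, counted 49, 49 and 32 times in the MC-F7 libraries and 8, 18 and 20 times in those of MT-F7. In CPM these were 2.17, 2.03 and 1.5 against 0.319, 0.695 and 0.849, with no overlap. The log2 fold change was -1.61 (SE 0.426, adjusted p = 0.0154), the largest fall of the 10 genes in this fit and the one with the widest error. With a constant added to TPM the logged fall was smaller than those of ASNS and CHAC1, at -0.16 on log2(TPM + 1) and -0.82 on log2(TPM + 0.1). The constant shrinks differences at so low a level. Without it, the mean of TRIB3 was 0.2 TPM in MC-F7 and 0.0708 TPM in MT-F7. Without MC-F7 replicate 2 the adjusted p was 0.0606, and without MT-F7 replicate 1 it was 0.0668.

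SESN2 (509863) encodes a leucine sensor that restrains the growth kinase complex mTORC1 and is a target of ATF4 and of p53. Unlike the preceding targets it was higher in MT-F7, at 19.3, 18.9 and 15.7 CPM, than in MC-F7, at 13.7, 12.02 and 12.2 CPM. The groups did not overlap. The level rose 1.42-fold, and the log2 fold change was 0.51 (SE 0.168, adjusted p = 0.0435). The call rested on nearly every library: the adjusted p of the edgeR test was 0.0524, 0.163 and 0.0825 without MC-F7 replicate 1, 2 or 3, and 0.162 and 0.131 without MT-F7 replicate 1 or 2, and SESN2 passed only without MT-F7 replicate 3.

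PPP1R15A (514688), known as GADD34, brings a phosphatase to eIF2α and so ends the response. It was at 29.4, 23.0 and 28.3 CPM in MC-F7 and at 25.9, 34.2 and 36.2 CPM in MT-F7. MT-F7 replicate 1 lay among the MC-F7 libraries. The log2 fold change was 0.26 with a 95% interval of -0.13 to 0.64 (adjusted p = 0.327).

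HSPA5 (415113) encodes BiP, the main HSP70 chaperone of the ER and the usual readout of ER stress. Its level was 482, 467 and 324 CPM in MC-F7 and 603, 522 and 397 CPM in MT-F7. Within each replicate number the MT-F7 library was the higher one, but libraries of the same number could not be taken as pairs. The groups overlapped because replicate 3 was the lowest library of both. The means were 424 ± 87.3 and 507 ± 104 CPM, with a log2 fold change of 0.26 and a 95% interval of -0.18 to 0.69 (adjusted p = 0.388). No fit called HSPA5, and with replicate 3 left out of both groups the log2 fold change was again 0.26 (adjusted p = 0.144).

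XBP1 (541236), the transcription factor of the IRE1 arm, was at 32.8, 36.1 and 25.4 CPM in MC-F7 and at 35.5, 30.6 and 21.1 CPM in MT-F7. The groups overlapped, and replicate 3 was again the lowest library of both. The log2 fold change was -0.11 with a 95% interval of -0.56 to 0.33 (adjusted p = 0.738), and the sign turned without MT-F7 replicate 3 (0.07, adjusted p = 0.823).

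**Figure D2:**
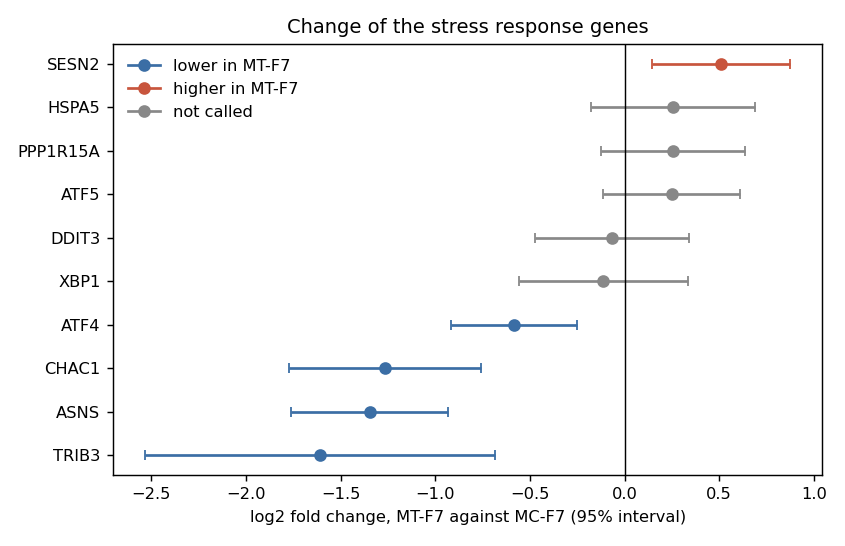
Log2 fold change of each of the 10 genes in MT-F7 against MC-F7 (horizontal axis) with its 95% interval from the edgeR fit. The intervals of TRIB3, ASNS, CHAC1 and ATF4 lie below 0 and that of SESN2 above 0, and the other 5 intervals include 0.

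The replicates of a group were not alike in all of these genes. On the log2 scale, replicate 3 differed from the mean of replicates 1 and 2 by -0.55 in MC-F7 and -0.50 in MT-F7 for HSPA5, and by -0.43 and -0.65 for XBP1. DDIT3 went the other way, with 0.47 in MC-F7 and 0.45 in MT-F7. TRIB3 and CHAC1 had opposite signs in the groups, with -0.48 and 0.82 for TRIB3 and -0.31 and 0.20 for CHAC1. Replicate 3 was also the library of each group with the highest share of mitochondrial counts, and the part of this in the differences was not tested. With replicate 3 left out of both groups, the calls of the 10 genes were again 4 lower and 1 higher, beside 15.7% and 16.8% of all genes tested in that fit, and the log2 fold changes were -0.49 for ATF4, -1.24 for ASNS, -1.41 for CHAC1, -2.02 for TRIB3 and 0.59 for SESN2.

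Other partners and targets of ATF4 and CHOP were read from a list of 39 genes, of which 35 were tested. Of these 35, 13 were called lower (37.1%) and 2 higher (5.71%), beside 11.3% and 11.9% of all tested genes. The median log2 fold change was -0.39, and 27 of the 35 values were negative, beside 6525 of the 13001 over all tested genes. In 20 of the 35 genes every MT-F7 library lay below every MC-F7 library, beside 20.1% of all tested genes. With DESeq2, 14 were called lower and 2 higher, beside 12.7% and 13.4% of all tested genes.

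The strongest change in this list was that of STC2 (540573), stanniocalcin 2, a secreted glycoprotein induced by ER stress and by hypoxia. It was at 84.0, 96.2 and 64.0 CPM in MC-F7 and at 4.94, 4.06 and 7.52 CPM in MT-F7. The groups were far apart, with a 14.8-fold lower level and a log2 fold change of -3.89 (SE 0.247, adjusted p = 7.65e-07). EIF4EBP1, a repressor of translation initiation, fell from 100.0 ± 8.69 to 58.3 ± 5.34 CPM (log2 fold change -0.78, adjusted p = 0.00236).

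Among 10 enzymes of amino acid and one-carbon metabolism, 4 were called lower and 1 higher, beside 11.3% and 11.9% of all tested genes. ALDH18A1, which makes the precursor of proline, fell from 79.4 ± 16.1 to 30.04 ± 4.72 CPM (log2 fold change -1.40, adjusted p = 1.84e-04). PHGDH, the first enzyme of serine synthesis, was at 249 ± 43.4 and 178 ± 22.2 CPM and did not pass (log2 fold change -0.48, adjusted p = 0.0597). PSAT1, the next enzyme of that route, went the other way and rose from 7.13 ± 2.46 to 15.1 ± 4.18 CPM (log2 fold change 1.08, adjusted p = 0.0137). The other gene called higher was BBC3 (PUMA), a promoter of apoptosis that is also a p53 target, which rose from 6.45 ± 1.41 to 10.7 ± 1.25 CPM (log2 fold change 0.73, adjusted p = 0.0243). These 2 genes were named after their values were seen, and the call of BBC3 was lost without MC-F7 replicate 1 or 3 or MT-F7 replicate 1 or 2 (adjusted p = 0.0763, 0.0507, 0.0627 and 0.0995). That of PSAT1 was lost without MT-F7 replicate 1 or 2 (adjusted p = 0.0573 and 0.0508).

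Of 5 tested amino acid transporters 2 were called lower and 0 higher, beside 11.3% and 11.9% of all tested genes. All 5 log2 fold changes were negative, as were 6525 of the 13001 over all tested genes. SLC7A5, the light chain of the leucine transporter LAT1, fell from 61.0 ± 7.37 to 32.1 ± 4.96 CPM (log2 fold change -0.93, adjusted p = 0.00165). Of 8 genes for tRNA charging and export 4 were called lower and 0 higher, beside the same shares of all tested genes. Their log2 fold changes ranged from -0.87 to 0.24. GARS1, glycyl-tRNA synthetase, was at 126, 124 and 119 CPM in MC-F7 and at 75.1, 68.9 and 57.2 CPM in MT-F7 (log2 fold change -0.87, adjusted p = 0.00118). AARS1, the alanyl enzyme, fell from 195 ± 12.2 to 121 ± 1.9 CPM (log2 fold change -0.69, adjusted p = 0.00351). NARS1, the asparaginyl enzyme, had a log2 fold change of -0.37 and did not pass (adjusted p = 0.107).

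Among the transcription regulators of the list, the 4 that could be tested had log2 fold changes from -0.37 to 0.32. None was called by edgeR or by DESeq2, and 0 of the 4 had an unadjusted p under 0.05. CEBPB, a partner of ATF4 and CHOP, was not matched in the count table and was read from the deposited TPM table. Its values were 3.02, 3.11 and 2.44 TPM in MC-F7 and 1.06, 0.843 and 0.461 TPM in MT-F7, without overlap. The difference in limma depended on the added constant. It was -1.79 on log2(TPM + 0.1) (adjusted p = 0.00804) and -1.12 on log2(TPM + 1) (adjusted p = 0.00704). GDF15 and SLC7A11 were too low for the test. The MC-F7 libraries held 9, 7 and 2 counts of GDF15 and those of MT-F7 8, 4 and 6. For SLC7A11 these were 6, 7 and 0 and 1, 0 and 4, and no difference was detectable at this depth. TNFRSF10B was not analysed here.

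**Figure D3:**
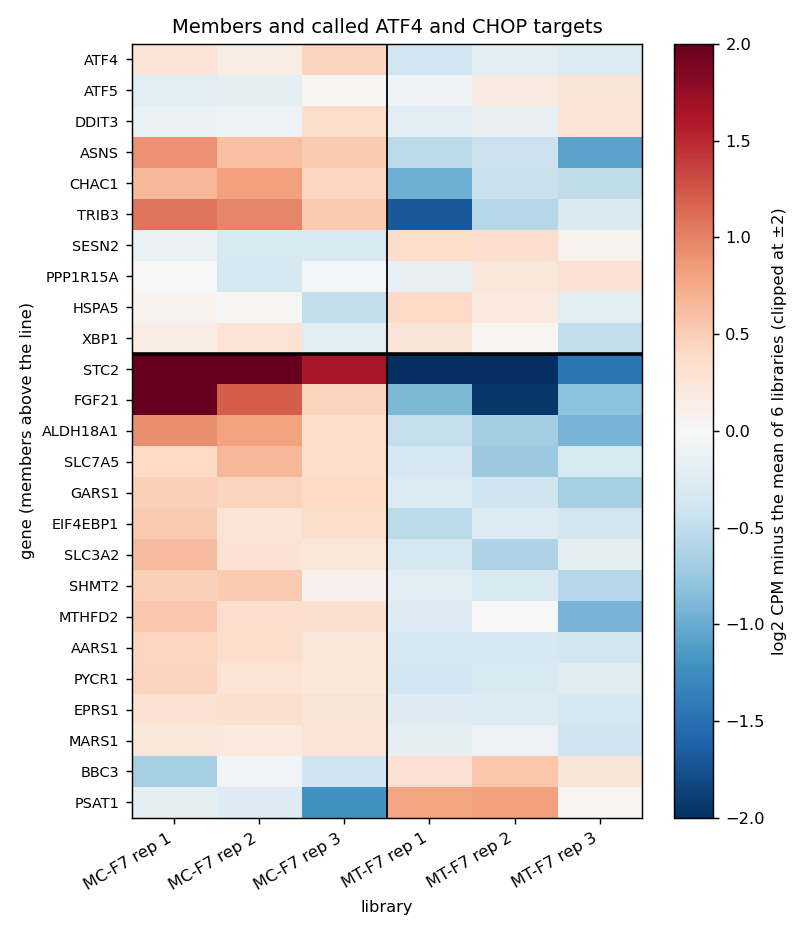
Log2 CPM of each gene in each library minus its mean over the 6 libraries, with the colour scale clipped at ±2. The 10 genes of the stress responses are above the horizontal line and the 15 called genes of the list of other ATF4 and CHOP targets below it. In 13 of those 15 the MT-F7 libraries are the lower ones, and BBC3 and PSAT1 are the exceptions.

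Upstream of ATF4, a list of 22 stress sensors and parts of the eIF2 machinery held 21 tested genes. Of these, 1 was called lower (4.76%) and 0 higher, beside 23.2% of all tested genes called in either direction. At an unadjusted p under 0.05, 4 were lower and 0 higher, beside 17.6% and 18.2% of all tested genes. DESeq2 called 2 lower and 0 higher, beside 12.7% and 13.4% of all tested genes. The called gene was PPP1R15B, the constitutive partner of the eIF2α phosphatase, which fell from 7.56 ± 1.57 to 4.23 ± 0.369 CPM (log2 fold change -0.84, adjusted p = 0.0174). Its call was lost without MC-F7 replicate 2 (adjusted p = 0.108) or MT-F7 replicate 2 (adjusted p = 0.0696). The 4 eIF2α kinases had log2 fold changes from -0.35 to 0.34. None of the 4 was called by edgeR or by DESeq2, and 1 had an unadjusted p under 0.05. ATF6, ATF6B and their proteases ranged from -0.25 to 0.74. No gene of these 4 was called by either tool, and 0 had an unadjusted p under 0.05. EIF2S2, a subunit of eIF2, was at 172 ± 27.1 and 122 ± 20.5 CPM (log2 fold change -0.50, adjusted p = 0.057). DELE1, which relays mitochondrial stress to eIF2α phosphorylation, was at 121 ± 10.8 and 137 ± 11.4 CPM (log2 fold change 0.18, adjusted p = 0.415). ERN1, the gene for IRE1, was not matched in the count table and lay between 0.0117 and 0.0351 TPM in all 6 libraries.

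Chaperones and folding enzymes of the ER were tested in full, 24 of 24. Of these, 1 was called higher (4.17%) and 0 lower, beside 11.9% and 11.3% of all tested genes. The median log2 fold change was 0.07. At an unadjusted p under 0.05, 6 were higher and 2 lower (18.2% and 17.6% of all tested genes), and DESeq2 called 3 higher and 0 lower (13.4% and 12.7% of all tested genes). The called gene was DNAJC1 (781036), a membrane-bound J protein that works with HSPA5. It was at 42.4, 38.6 and 33.2 CPM in MC-F7 and at 115, 133 and 110.01 CPM in MT-F7, 3.14-fold higher, and the log2 fold change was 1.65 (SE 0.158, adjusted p = 1.28e-05). By the mean CPM of both groups, not corrected for length, the highest uncalled genes were P4HB, a protein disulfide isomerase, and PPIB, a prolyl isomerase. P4HB was at 804 ± 190.2 and 687 ± 79.1 CPM (log2 fold change -0.23, adjusted p = 0.44), and PPIB at 756 ± 103 and 730.4 ± 25.6 CPM (-0.05, adjusted p = 0.859). As with HSPA5, replicate 3 was the lowest library in 19 of these 24 genes in MC-F7 and in 14 in MT-F7 (79.2% and 58.3%, beside 40.6% and 40.5% of all tested genes). With replicate 3 left out of both groups, 4 of the 24 were called higher and 3 lower, beside 16.8% and 15.7% of all genes tested in that fit.

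In ER-associated degradation and translocation, 25 genes were tested, of which 2 were called higher and 2 lower. These were 16.0% in all, beside 23.2% of all tested genes. The median log2 fold change was -0.11. DERL3, a channel protein of the degradation route, fell from 27.7 ± 2.92 to 13.1 ± 0.982 CPM (log2 fold change -1.08, adjusted p = 4.4e-04). SELENOS, a selenoprotein of the same complex, was lower with a log2 fold change of -0.67 (adjusted p = 0.0284). Its groups overlapped, because MC-F7 replicate 3 was at 27.1 CPM and MT-F7 replicate 1 at 27.2 CPM. The ubiquitin ligase SYVN1 was higher, from 17.9 ± 0.64 to 28.1 ± 2.84 CPM. On the log2 scale it rose by 0.65 (adjusted p = 0.00885). VCP, the ATPase that pulls proteins out of the ER, was at 574 ± 34.3 and 536 ± 49.0 CPM (log2 fold change -0.10, adjusted p = 0.688). SEC61A1, the translocation channel, had a log2 fold change of -0.28 (adjusted p = 0.209). Calls were lost for SELENOS in 4 of the 6 fits that left out 1 library (adjusted p up to 0.125), and for SYVN1 without MC-F7 replicate 2 (0.050003) or MT-F7 replicate 1 (0.0555).

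For the stress response of mitochondria, which in mammals runs through ATF4, ATF5 and CHOP, 11 genes were tested. Of these, 1 was called lower (9.09%) and 0 higher, beside 11.3% and 11.9% of all tested genes. The called gene was LONP1, a matrix protease and ATF4 target. At an unadjusted p under 0.05 and with DESeq2 the counts were also 1 lower and 0 higher. The shares of all tested genes were 17.6% lower and 18.2% higher for the former and 12.7% and 13.4% for DESeq2. LONP1 was at 305, 264 and 263 CPM in MC-F7 and at 136, 132 and 143 CPM in MT-F7, 2.02-fold lower, and the log2 fold change was -1.01 (SE 0.145, adjusted p = 2.99e-04). The chaperones HSPE1 and HSPA9 were at -0.29 (adjusted p = 0.245) and -0.21 (adjusted p = 0.401) on the log2 scale, and their groups overlapped.

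**Figure D4:**
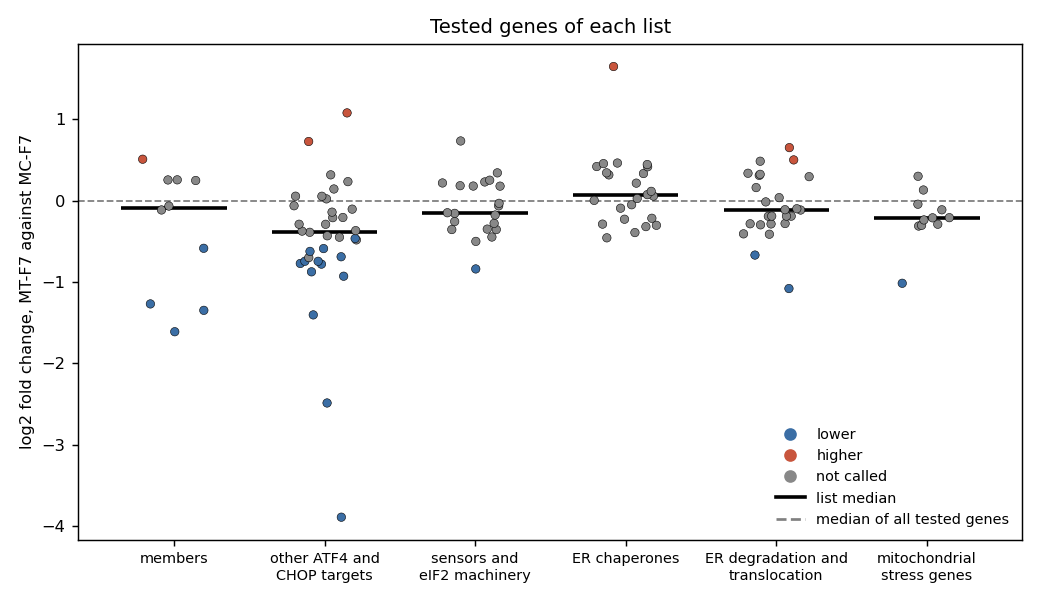
Log2 fold change of every tested gene of the 10 members and of 5 pathway lists, coloured by the call of the edgeR test, with the median of each list as a bar and the median of all tested genes as a dashed line. The list of other ATF4 and CHOP targets has its median at -0.39, and the ER chaperones have theirs at 0.07.

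Levels were compared between genes in the deposited TPM values, which are counts per length. These values summed to 155595 to 165666 per library and not to 1000000, and library size remained in them. ATF4 was the highest of the 10 genes in both groups, at 81.8 to 89.6 TPM in MC-F7 and 58.8 to 68.9 TPM in MT-F7. HSPA5 and ASNS came next. In MC-F7 their ranges overlapped, at 24.8 to 40.4 TPM for HSPA5 and 25.7 to 35.9 TPM for ASNS. In MT-F7 they were apart, at 33.5 to 54.3 TPM and 9.43 to 16.1 TPM. DDIT3 and XBP1 followed and overlapped in both groups, at 5.92 to 7.83 and 4.38 to 7.0 TPM in MC-F7 and at 6.23 to 8.17 and 3.99 to 7.18 TPM in MT-F7. PPP1R15A was above ATF5 in MC-F7, at 1.98 to 2.38 against 1.61 to 1.82 TPM, and overlapped it in MT-F7, at 2.33 to 3.17 against 2.0 to 2.44 TPM. CHAC1 and SESN2 changed places. CHAC1 was at 0.685 to 1.02 TPM in MC-F7 and 0.304 to 0.453 TPM in MT-F7, and SESN2 at 0.571 to 0.679 TPM and 0.812 to 1.08 TPM. TRIB3 was the lowest in both, at 0.148 to 0.226 TPM and 0.0369 to 0.0923 TPM.

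**Figure D5:**
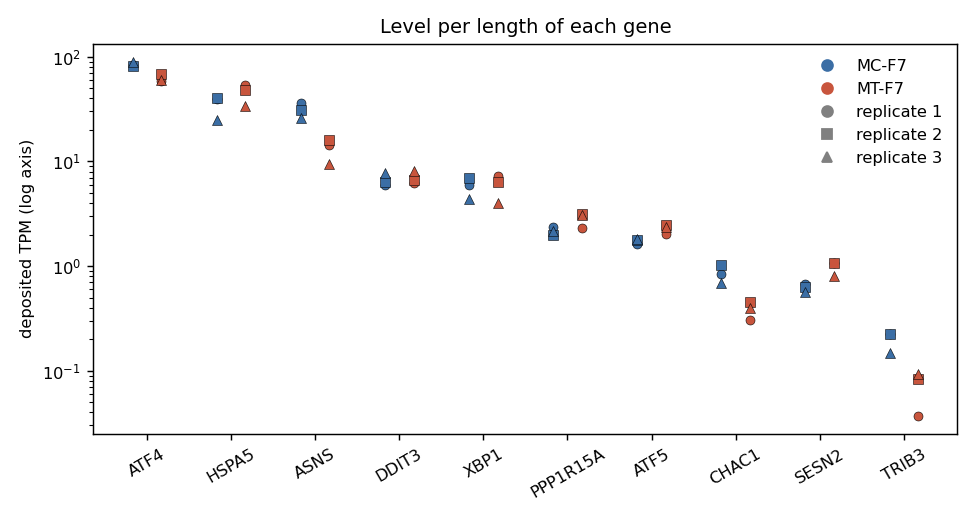
Deposited TPM of the 10 genes in every library on a log axis, ordered by their mean in MC-F7, with colours for the groups and symbols for the replicate numbers. ATF4 is the highest and TRIB3 the lowest gene in both groups, and CHAC1 and SESN2 are in the opposite order in MC-F7 and MT-F7.

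The genes with the most similar course over the 6 libraries were found by the root mean square difference of log2 CPM after each gene was centred on its mean, over 12991 other tested genes. Because the choice used the same 6 libraries, their log2 fold changes lie near that of the member by construction. These changes and their adjusted p values are therefore no separate result. For ATF4 these were NOP56, MCC and TRAP1, at differences of 0.0498, 0.0505 and 0.0534. TRAP1, a mitochondrial HSP90, had a log2 fold change of -0.63 (adjusted p = 0.00583), and NOP56, a protein of ribosomal RNA processing, had -0.55 (adjusted p = 0.0207). For HSPA5 they were PARP1, PDIA3 and HSDL1, at 0.0463, 0.0501 and 0.0507. Of these, PDIA3 is a disulfide isomerase of the ER, with 577 CPM in MC-F7 and 732 CPM in MT-F7 on average (log2 fold change 0.34, adjusted p = 0.25). For XBP1 they were FAM136A, KPNA2 and BBX, at 0.0456, 0.048 and 0.0484, with log2 fold changes of -0.07, -0.10 and -0.10.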

How the data were processed

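The authors aligned 150 bp paired-end reads with HISAT2 2.0.5 to a bovine genome taken from Ensembl and counted them per gene with featureCounts 1.5.0-p3. The build and the strand setting are not given in the sources used here. The authors deposited raw counts for 19163 Entrez genes in 6 libraries, and a table of values they call TPM. For each of the 10 members, the ratio of TPM to count was the same in all libraries.

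Symbols came from RefSeq (ARS-UCD2.0), which matched 19074 of the identifiers. The filter was filterByExpr with at least 10 counts and 15 in total, and genes were tested as MT-F7 against MC-F7 with edgeR 4.0.16 (TMM, quasi-likelihood, no block) in R 4.3.3. The standard error is the log2 fold change divided by the root of the F statistic. Alternatives used DESeq2 1.42.0, limma 3.58.1 on TPM, a likelihood ratio test, other scaling and filters, no mitochondrial genes, the replicate number as a block, and each library left out in turn. In simulated counts for MT-F7 against MC-F7 on 19163 genes, the test recovered 100 of 100 genes changed by 2 and 87 of 100 changed by 1 on the log2 scale, and 6.5% of its 200 calls were false. The simulation gave every gene the same dispersion and changed only well-counted genes. Changes as small as those of ATF4 and SESN2, or in genes as low as TRIB3, were not simulated. No pair of replicates agreed within sampling noise.

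The members, lists and tests were chosen with earlier results of these data known. From each list, up to 6 called genes by adjusted p and the 2 uncalled genes with the highest CPM were named, except 1 called gene that is counted but not reported here. Promoter sequences were not analysed here. Lists were described by counts, with no set test.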

Additional observations from a re-analysis of the deposited data

How the results depend on the processing

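The 10 members were refitted under 18 other settings, of which leaving replicate 3 out of both groups and rescaling TPM to 1000000 per library were chosen after the data had been seen. ASNS and CHAC1 passed in all 18, ATF4 in 14, TRIB3 in 15 of the 17 that could test it and SESN2 in 10. DDIT3, HSPA5, XBP1, PPP1R15A and ATF5 passed in 0. When 1 library was left out, the 4 members called lower became 2 to 4, with 2 without MT-F7 replicate 1, and the 1 called higher became 0 to 1, with 1 only without MT-F7 replicate 3. With the study's fold cut-off and an unadjusted p 1 member was lower and 0 higher, 856 genes passed in place of 3016, and the lists had 0 sensors, 2 ATF4 and CHOP targets, 0 degradation genes and 0 mitochondrial genes. In limma on log2(TPM + 1), on log2(TPM + 0.1) and on rescaled TPM, 0 members were higher and 0 sensors were called. The first of these called 1539 of 16692 genes higher (9.22%) and 807 lower (4.83%). The second called 1568 higher (9.39%) and 833 lower (4.99%). In the main fit of 13001 genes these were 1553 (11.9%) and 1463 (11.3%). DESeq2 and the likelihood ratio test each called 2 of 21 sensors and 3 of 24 chaperones, beside 26.1% and 27.6% of all tested genes. With replicate 3 left out of both groups 6 sensors, 7 chaperones, 9 degradation genes and 2 mitochondrial genes were called, beside 4242 genes in all (32.4% of those tested, against 23.2%). The cause of these differences was not tested. Leaving out 1 library gave 1914 to 3093 genes in all (14.5% to 23.4% of those tested), and 1914 was the count without MC-F7 replicate 2. In these fits 0 to 3 sensors, 11 to 16 ATF4 and CHOP targets and 1 to 4 chaperones were called. Degradation genes called were 1 to 4, and mitochondrial genes stayed at 1. The sensors were 0 without MC-F7 or MT-F7 replicate 2 and 3 without MC-F7 replicate 3. The chaperones were 2, 3 and 4 without MC-F7 replicate 1, MC-F7 replicate 3 and MT-F7 replicate 3. The degradation genes were 1 without MC-F7 replicate 2 and 2 without MT-F7 replicate 1 or 2.

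Signs turned only in uncalled genes among those named. DDIT3 became 0.017 on rescaled TPM, 0.066 on log2(TPM + 0.1) and 0.058 on log2(TPM + 1), and was -0.24 to 0.10 without 1 library. XBP1 became 0.0022 on log2(TPM + 1) and was -0.29 to 0.066 without 1 library. PPIB became 0.041, 0.090 and 0.090 in the same TPM settings and was -0.15 to 0.055 without 1 library, and VCP became 0.030 on both log2(TPM + 0.1) and log2(TPM + 1).

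A fit that had the replicate number as its block called 4674 genes (36% of those tested), 4 sensors, 8 chaperones (6 higher and 2 lower) and 7 degradation genes, and its calls of members were again 4 lower and 1 higher. The deviations of same-numbered libraries correlated across genes at 0.121, 0.0391 and 0.372 for numbers 1, 2 and 3, and number 2 stayed under the 0.1 required of every number to take the libraries as pairs. The number 3 libraries correlated best with each other, and not every other library correlated best with its own number.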
